A study of Mus musculus with 6 samples.

Results

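The unfolded protein response, the integrated stress response and the cytosolic heat shock response were followed through 35 genes in whole mouse testis, chosen by name from the 55850 gene rows of the series. They fall into 5 branches: 13 chaperones and folding enzymes of the endoplasmic reticulum (ER), 5 stress sensors and ER-side factors, 8 genes of the ATF4 branch, 3 oxidative stress genes and 6 cytosolic heat shock genes. The rule that picks them names genes and sets no cutoff on a measured value, but it was written with earlier results of these data known. All 35 were in the table, and 34 reached the mean of 1 FPKM needed for testing; the exception was Chac1. FPKM is the number of reads scaled to gene length and to the library total, so levels given in FPKM may be set beside each other between genes.

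The samples were 6 libraries of total testis RNA, 3 with the genotype label WT and 3 with the label CKO (written cKO here), all labelled as untreated. By the title of the series, the factor studied is SRSF2, which regulates splicing, in the Sertoli cells that nurse germ cells within the tubules. The sources used here do not give the age or strain of the mice, the Cre driver or the deleted part of Srsf2. Nothing in the labels ties a library to a separate animal, so p-values measure only the spread between these libraries, which may be technical.

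As background, secretory and membrane proteins fold in the ER with the help of chaperones, and sensors in its membrane respond when unfolded proteins build up. IRE1 (gene Ern1) splices Xbp1 mRNA, ATF6 is cut to release a transcription factor, and PERK (gene Eif2ak3) phosphorylates the translation factor eIF2. Phosphorylated eIF2, which GCN2 (gene Eif2ak4) also produces when amino acids run short, lowers translation in general while favouring that of ATF4, a factor that switches on genes of amino acid supply and cell death. In the cytosol, the heat shock factors raise HSP70 and HSP90 family genes. Splicing of Xbp1, cleavage of ATF6, phosphorylation and translation are not seen in a table of mRNA levels.

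Some of the ER chaperone genes carry a written feature in their promoters, given here as a description and not as a test. The ER stress response element (ERSE), bound by ATF6 together with NF-Y, is spelled here as CCAAT and CCACG with 9 bases between them, searched on both strands. RefSeq promoter windows of GRCm38.p6, which run from 250 bases before to 50 bases after a gene start, were matched by symbol for 29 of the 35 genes; Manf, Hyou1, Atf6, Hmox1, Hspa8 and Hsp90aa1 had none. The element was found in 7 of the 11 ER chaperone genes with a window. It was in 0 of the windowed genes of the other 4 branches, 0.137% of all windowed genes and 0.119% of all 32851 windows. The matches are shown because they mark which members carry the element, with CCAAT and CCACG in capitals and the 9 bases between in lower case, read 5′ to 3′ on the strand of the element.
Hspa5, chr2:34772025-34772043: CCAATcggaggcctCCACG
Hsp90b1, chr10:86705638-86705656: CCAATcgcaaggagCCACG
Hsp90b1, chr10:86705533-86705551: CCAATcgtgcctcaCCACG
Calr, chr8:84847075-84847093: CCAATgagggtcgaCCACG
Canx, chr11:50325800-50325818: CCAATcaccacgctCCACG
Pdia6, chr12:17266491-17266509: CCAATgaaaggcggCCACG
Dnajc3, chr14:118937827-118937845: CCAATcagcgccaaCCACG
Creld2, chr15:88819520-88819538: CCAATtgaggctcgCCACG

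The whole window of Hspa5, the gene of the central ER chaperone BiP, shows the element in place. It lies on chr2:34771840-34772139, plus strand, and the match begins 65 bases before the gene start, with CCAAT and CCACG in capitals.
Hspa5 window: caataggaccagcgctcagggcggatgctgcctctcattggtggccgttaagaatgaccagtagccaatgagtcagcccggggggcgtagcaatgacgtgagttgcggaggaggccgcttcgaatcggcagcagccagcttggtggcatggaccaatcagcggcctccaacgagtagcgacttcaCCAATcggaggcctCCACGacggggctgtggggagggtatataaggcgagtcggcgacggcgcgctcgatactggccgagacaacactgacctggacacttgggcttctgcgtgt

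Other elements were searched in the same windows. The amino acid response element bound by ATF4, spelled TGATGNAAN, was found in 3 of the 8 windowed ATF4 branch genes. It was in 0 windowed genes of the other branches, 4.50% of all windowed genes and 3.95% of windows. The matches are shown with 10 bases on each side, the element in capitals, read on the strand of the element. The flanked match of Asns lies at chr6:7693214-7693242, that of Trib3 at chr2:152344029-152344057 and that of Chac1 at chr2:119351038-119351066.
Asns: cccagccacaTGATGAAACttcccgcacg
Trib3: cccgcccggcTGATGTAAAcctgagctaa
Chac1: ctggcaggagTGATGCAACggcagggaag
A heat shock element was spelled as GAA, TTC and GAA evenly spaced over 13 bases, with no mismatch allowed. It was found in the window of Hsph1 alone among the 4 windowed heat shock genes. Over all windowed genes it was in 0.662%, and over all windows in 0.603%. Looser forms of the element were not searched. The UPRE spelled TGACGTGG was in 0 members, 0.714% of all windowed genes and 0.676% of windows. ERSE-II was in 0 members, 0.0444% of all windowed genes and 0.0365% of windows. The antioxidant element spelled TGACNNNGC was in 8 of the 29 windowed members, beside 14.0% of all windowed genes and 12.4% of windows. It was in 0 of the 2 windowed oxidative stress genes. CCAAT alone, the NF-Y box that is also part of the ERSE, was in 22 of the 29, beside 41.1% of all windowed genes and 37.4% of windows. These matches describe letters, not bound sites.

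None of the 34 tested genes passed the test between cKO and WT. At a limma adjusted p under 0.05, 0 of 34 passed, beside 2 of 14238 genes (0.014%), and the lowest adjusted p among the members was 0.379, for Sdf2l1. At an unadjusted p under 0.05, Pdia6 and Sdf2l1 were lower (2 of 34, beside 7.68% of all tested genes) and 0 were higher (beside 4.65%). The 3 cKO libraries lay wholly above the 3 WT libraries for 2 members, Canx and Hspa8 (beside 8.69% of all tested genes), and wholly below for 3, Pdia6, Manf and Atf5 (beside 9.92%). These shares are near or below those of all genes. The 95% intervals bound differences of whole testis on the scale of log2(FPKM + 1), and not a change within 1 cell type. On that scale changes of weakly expressed genes, such as Trib3, come out too small. For 33 of 34 members the interval lay within 1 log2 unit on either side of 0, Sdf2l1 being the exception. For 20 it lay within 0.5.

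**Figure D1:**
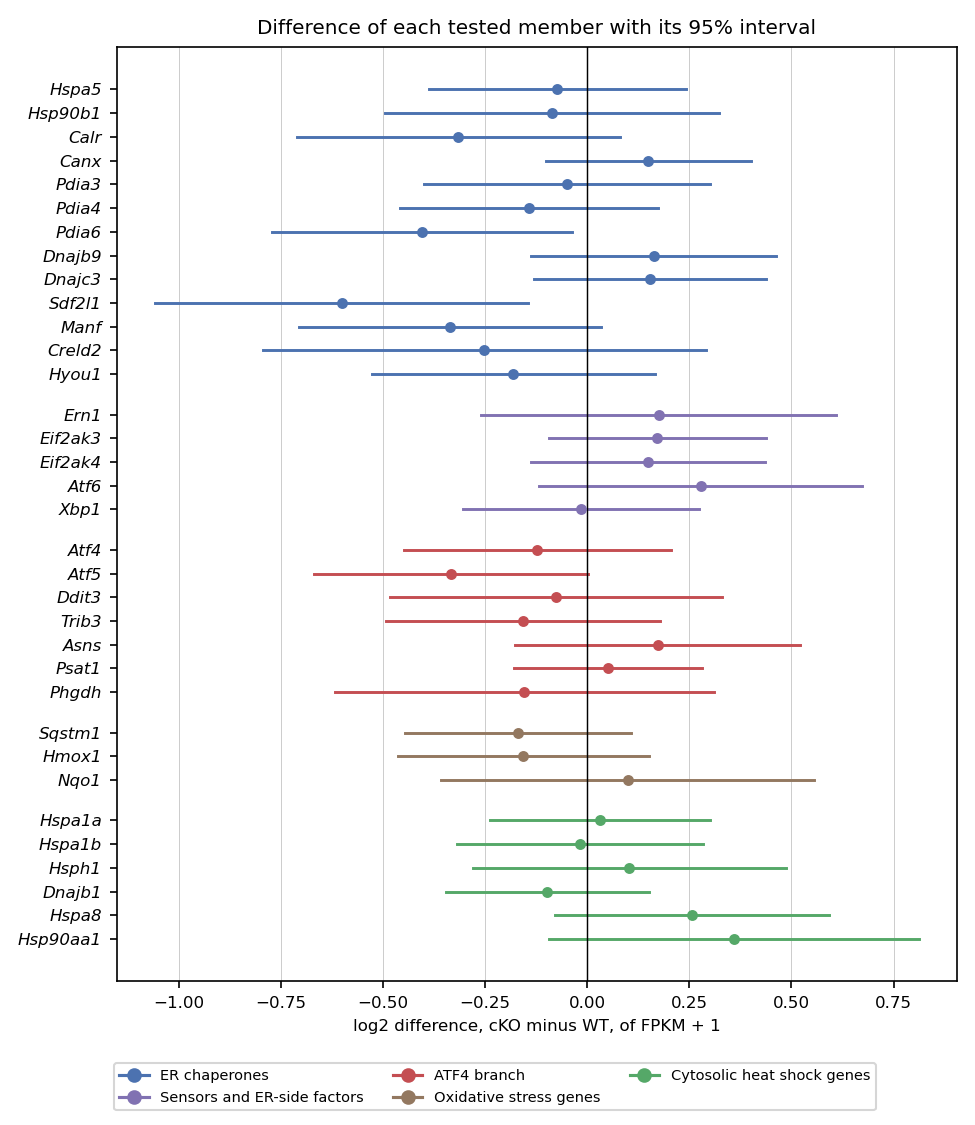
The plot gives the log2 difference in FPKM + 1, cKO minus WT, of the 34 tested members (points) with 95% intervals from limma (lines), by branch, from 3 libraries in each group. The intervals of Pdia6 and Sdf2l1 are the ones that do not reach 0, and no member passed after adjustment over all genes.

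Facts of the libraries bear on these values. Depth was even, at 16070287 to 17281330 recovered reads. Srsf2, the targeted gene, averaged 108.5 ± 16.2 (WT) and 82.9 ± 7.70 FPKM (cKO; SD, n = 3), with a limma adjusted p of 0.384; the deleted part is not known here. Reads of 18S ribosomal RNA took 1.58 to 2.09% of WT and 0.727 to 0.835% of cKO libraries, and mitochondrial genes 1.66 to 1.98% and 2.39 to 2.97%. All 7 red blood cell markers lay above 0 (median log2 difference 0.69), and their summed level overlapped between the groups (2717 to 5699 and 4868 to 6495 FPKM). Of the 18 Sertoli markers, 17 had a negative log2 difference, and their summed level was 1824 to 2328 FPKM across WT and 1334 to 1541 FPKM across cKO libraries. Of 13 tested germ cell markers 12 had a positive difference, and the sum over all 14 ran from 224 to 489.5 FPKM (WT) and from 305 to 459 FPKM (cKO). The summed level of interstitial stroma markers ran from 1258 to 1351 FPKM in WT and from 999 to 1255 FPKM in cKO. That of endothelium markers ran from 86.5 to 98.2 and from 79.9 to 86.0 FPKM. Both sums were thus lower in cKO without overlap, but by narrow margins, and members of each list went both ways. Negative differences were held by 6 of 9 stroma markers and 5 of 7 endothelium markers, positive ones by 3 and 2. The sums of the Leydig, peritubular myoid and macrophage lists overlapped. No marker of the 8 cell type lists was at 0 in all libraries. Fewer cells of a type and less RNA per cell cannot be told apart in whole testis. The part of these shifts in the values of the stress genes was not tested.

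Differences also followed base composition. Across 13945 tested genes with known transcripts, which are not independent replicates and share the same 6 libraries, Pearson's r between the share of G and C bases and the log2 difference was -0.55. Among the 34 members it was -0.49. By library, the deviation of all these genes from their mean had an r with base composition of -0.50 in cKO replicate 2 and -0.47 in cKO replicate 3, but of 0.13 in cKO replicate 1 and 0.23 to 0.31 in WT. Between transcript length (log2) and difference it was 0.21 over all genes and 0.56 over the members. With trends on length and base composition removed from each library, 16 members had a positive and 18 a negative difference, against 14 and 20 without that step, and the members at an unadjusted p under 0.05 became Hspa1a (higher), Pdia6 and Manf (lower), beside 3.22% of all genes higher and 5.05% lower in that setting.

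**Figure D2:**
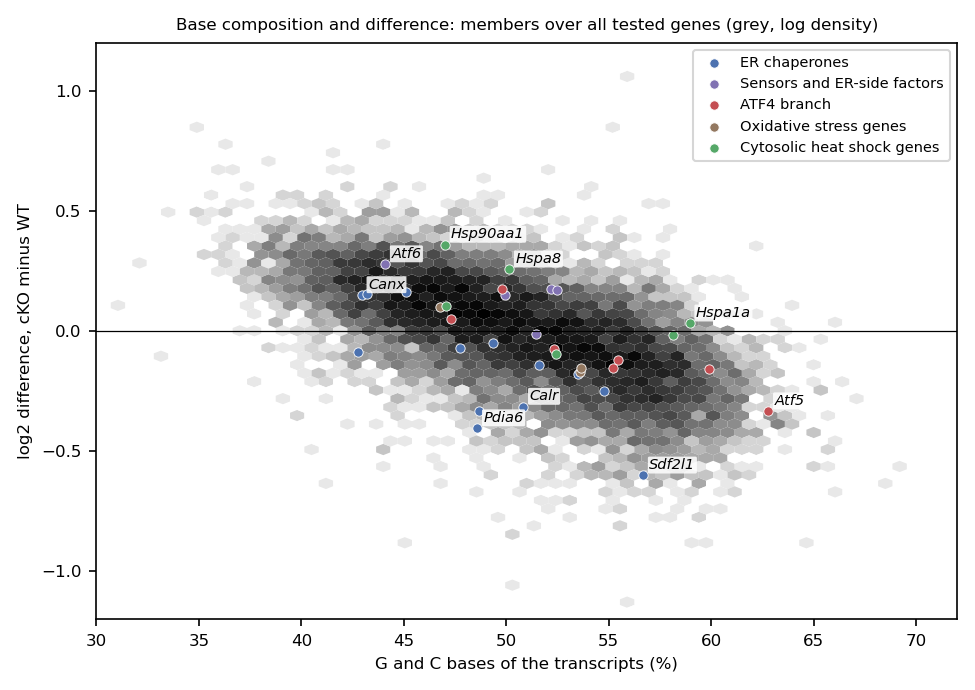
Each member (coloured point, by branch) is placed by the percentage of G and C bases in its transcripts and by its log2 difference, cKO minus WT, over the density of all tested genes in grey. Members with more G and C bases tend to sit lower, as the grey cloud does; Pdia6 and Calr lie in its lower part, and Hsp90aa1, Hspa8 and Hspa1a in its upper part.

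Levels ordered the members over a wide range. Hspa8, the constitutive cytosolic HSP70, was highest with a mean of 372 FPKM over the 6 libraries, at the 99.5th percentile of tested genes. Hsp90aa1, a cytosolic HSP90 gene, followed at 242 FPKM, and Calr, Pdia3, Hspa5 and Hsp90b1, which encode abundant ER chaperones, stood at 186, 183, 136 and 124 FPKM. Of 33 neighbouring pairs in this order, 4 did not overlap over the 6 libraries: Pdia3 above Hspa5, Pdia4 above Hmox1, Psat1 above Hspa1a and Atf6 above Trib3. Hspa8 was above Hsp90aa1 in 6 of 6 libraries, although their ranges met. Other neighbours were close, and the SD over 6 libraries was 31.2 FPKM for Calr and 20.7 for Pdia3, and 12.9 for Hspa5 and 20.3 for Hsp90b1. The sensor genes were low, with Eif2ak3 at 6.54, Ern1 at 6.52, Eif2ak4 at 5.63 and Atf6 at 4.42 FPKM. Trib3 stood at 1.69 FPKM with 46 to 69 reads per library. Chac1, which encodes a glutathione-degrading enzyme, stood at 0.460 FPKM, with 11, 17 and 5 reads in the WT and 17, 18 and 8 in the cKO libraries, too few to compare.

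**Figure D3:**
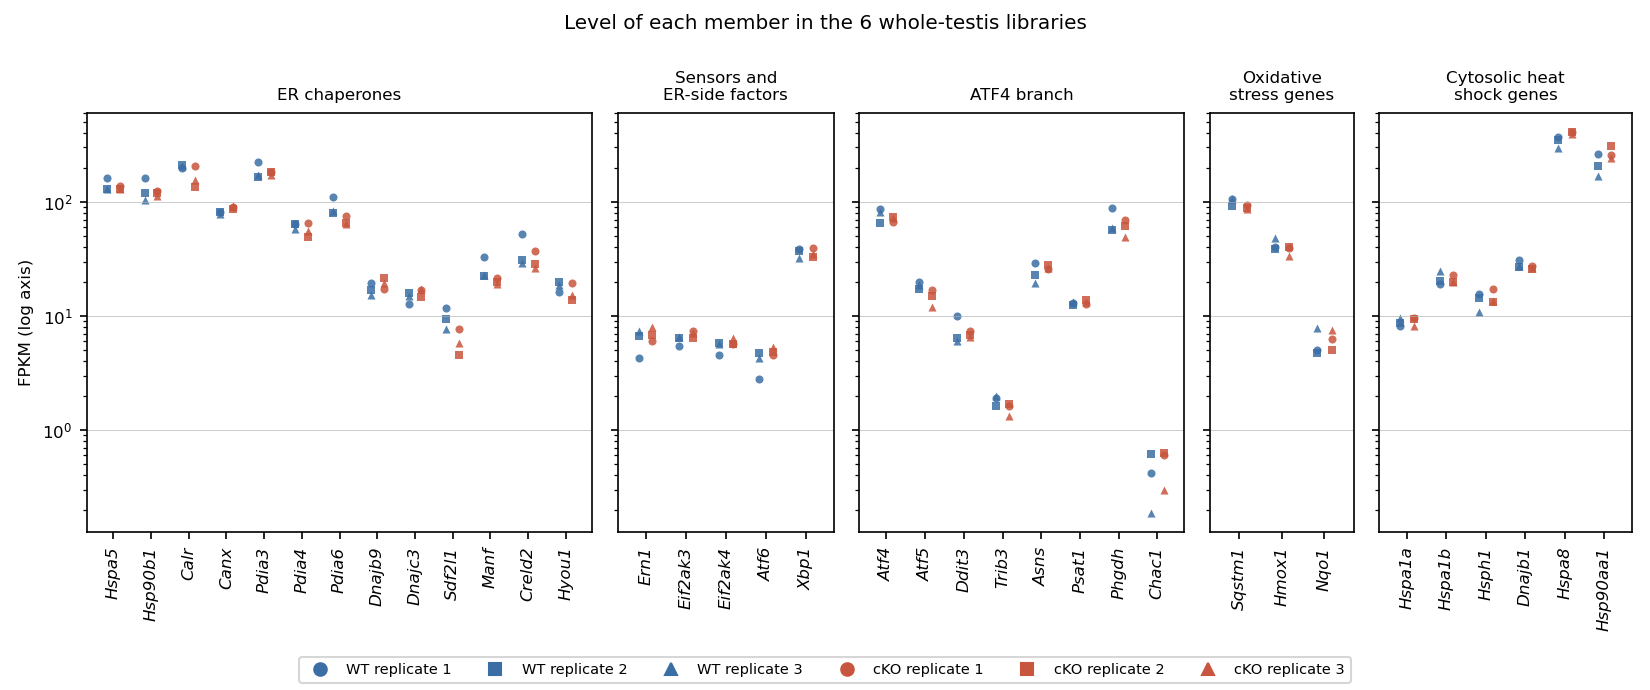
FPKM of the 35 members on a log axis in each library, WT in blue and cKO in red, with marker shapes for replicates 1 to 3. Levels span from Chac1 at 0.460 FPKM to Hspa8 at 372 FPKM in the mean, and the blue and red points of most members overlap.

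Among ER chaperones, 10 of 13 had a negative log2 difference, with a median of -0.14 beside 0.0049 over all tested genes. Without WT replicate 1 that median was 0.0087, and with length and base composition trends removed it was -0.14. Hspa5 was at 162, 129 and 129 FPKM in the WT libraries and at 137, 130.3 and 129.9 FPKM in the cKO libraries. WT replicate 1 was high and the other 5 libraries lay between 129 and 137 FPKM, so the groups overlapped, and the log2 difference was -0.07 (95% interval -0.39 to 0.24, limma adjusted p = 0.830). Hsp90b1, the ER member of the HSP90 family (GRP94), was likewise highest in WT replicate 1, with 162 FPKM there and 103 to 124 FPKM in the other 5 libraries. Pdia3, a disulfide isomerase that works with the lectin chaperones, was at 223 FPKM in WT replicate 1 and 165 to 182 FPKM elsewhere.

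The largest negative differences of the branch were those of Sdf2l1, Pdia6 and Manf. Sdf2l1, whose product works with BiP and its J-domain partners, was at 11.6, 9.41 and 7.64 FPKM in WT and 7.67, 4.56 and 5.75 FPKM in cKO. The groups touched at WT replicate 3 and cKO replicate 1, and the cKO mean was 62.7% of the WT mean. Its log2 difference was -0.60 (SE 0.20, limma adjusted p = 0.379), and it became -0.36 with length and base composition trends removed; its counts were 89 to 205 reads per library.

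Pdia6, a disulfide isomerase of the BiP system, was at 111, 80.3 and 82.5 FPKM in WT and 75.5, 65.2 and 63.9 FPKM in cKO, so every cKO library lay below every WT library. Pdia6 thus had a log2 difference of -0.40 (SE 0.16, limma adjusted p = 0.385), -0.26 without WT replicate 1 and -0.46 with the trends removed. Its exons share bases with Atp6v1c2 on the opposite strand, and the sources used here do not say whether the authors counted by strand. Manf, a secreted ER stress-induced factor, was at 32.8, 22.6 and 22.7 FPKM in WT and 21.6, 19.7 and 19.1 FPKM in cKO, again without overlap (log2 difference -0.34, -0.16 without WT replicate 1). Manf shares exon bases with Rbm15b on the same strand and with Dcaf1 and 4930524O07Rik on the opposite strand.

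The lectin chaperones differed in sign. Calr (calreticulin) was at 199, 209.9 and 205 FPKM in WT and 207, 136 and 157 FPKM in cKO, where cKO replicates 2 and 3 were low and replicate 1 was level with WT (log2 difference -0.32, adjusted p = 0.472 by limma). Canx (calnexin), its membrane-bound relative, was at 82.3, 80.8 and 78.4 FPKM in WT and 89.3, 86.9 and 91.9 FPKM in cKO. The Canx groups did not overlap, with a log2 difference of 0.15 (adjusted p = 0.576 by limma), and this turned to -0.03 with the trends removed. With the trends removed Calr was at -0.29, so both genes were negative in that setting. Calr transcripts held 50.8% and Canx transcripts 42.9% G and C bases. Creld2, a disulfide isomerase-like gene, ranged from 29.4 to 52.6 FPKM in WT and 26.4 to 37.3 in cKO, and Hyou1, an ER HSP70 relative that releases nucleotide from BiP, from 16.3 to 19.9 and 13.7 to 19.5 FPKM. The log2 difference of Creld2 was -0.25, and it was 0.0087 without WT replicate 1 and -0.07 with the trends removed. Pdia4 ranged from 57.8 to 64.6 and 49.1 to 64.9 FPKM, and the J-domain cofactors of BiP leaned the other way, Dnajb9 with a log2 difference of 0.16 (0.08 with the trends removed) and Dnajc3 with 0.15 (-0.03 with the trends removed).

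The 7 ER chaperones with an ERSE match had a median log2 difference of -0.09, from -0.40 for Pdia6 to 0.15 for Dnajc3. The 4 with a window and no match had a median of -0.10.

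Other genes of the ER folding pathway went both ways, and in the 4 ER lists 0 genes passed the threshold (limma). Of 26 other ER folding genes, 15 had a negative difference (median log2 difference -0.10), and at an unadjusted p under 0.05, 3 were higher and 5 lower. These counts, and those of the lists that follow, stand beside 4.65% of all tested genes higher and 7.68% lower at that limit. Sil1, a nucleotide exchange factor of BiP, averaged 10.5 ± 0.785 (WT) and 7.03 ± 0.456 FPKM (cKO; SD, n = 3). Its groups did not overlap, and the log2 difference was -0.51. Pdia5, another disulfide isomerase, was at 14.5 ± 2.69 and 8.88 ± 0.941 FPKM, also with no overlap (-0.64). Ero1a, the oxidase that recharges disulfide isomerases, stood the other way at 7.77 ± 1.14 and 11.4 ± 1.67 FPKM (0.50). With the trends removed these became -0.46, -0.58 and 0.35.

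Of 27 genes of ER translocation and glycoprotein folding, 16 had a negative difference (median -0.07), with 2 higher and 4 lower at an unadjusted p under 0.05. Mogs and Prkcsh, which trim glucose from new glycoproteins, had log2 differences of -0.59 and -0.40, and Sec61b, a subunit of the translocation channel, -0.56. Mogs was at -0.39 and Sec61b at -0.34 with the trends removed. Of 21 ER degradation genes, 13 had a positive difference (median 0.03), with 0 higher and 1 lower at that limit, Os9, a lectin of the pathway, at -0.41. Syvn1, the ubiquitin ligase HRD1, stood at -0.28 and Ube2j1, a ubiquitin-conjugating enzyme, at 0.21. With the trends removed the values of Os9, Syvn1 and Ube2j1 were -0.21, -0.13 and 0.11.

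The sensor genes stood slightly higher in cKO by value, none past the test: 4 of the 5 genes lay above 0 and the branch median was 0.17 (0.09 with the trends removed). Atf6 was at 2.79, 4.76 and 4.26 FPKM in WT and 4.51, 4.84 and 5.36 FPKM in cKO. WT replicate 1 was the lowest by a wide margin and the other libraries overlapped; the log2 difference was 0.28 (95% interval -0.12 to 0.67, limma adjusted p = 0.523), 0.10 without WT replicate 1 and 0.09 with the trends removed. Ern1 was at 4.31, 6.63 and 7.41 FPKM in WT and 5.98, 6.87 and 7.92 FPKM in cKO, and its difference of 0.18 became -0.02 without WT replicate 1. Eif2ak3 was at 5.43, 6.35 and 6.51 FPKM in WT and 7.33, 6.46 and 7.15 FPKM in cKO, overlapping at cKO replicate 2 (log2 difference 0.17, 0.10 without WT replicate 1). Eif2ak4 was at 4.54, 5.74 and 5.63 FPKM in WT and 5.72, 5.71 and 6.47 FPKM in cKO, with a log2 difference of 0.15 that was 0.06 without WT replicate 1 and 0.08 with the trends removed.

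Xbp1 itself was even. It was at 38.8, 37.4 and 32.3 FPKM in WT and 39.3, 32.8 and 35.2 FPKM in cKO, with a log2 difference of -0.02 (95% interval -0.30 to 0.27, limma adjusted p = 0.967). Among 14 other ER stress regulators 7 differences were positive and 7 negative (median 0.01), and 1 was lower at an unadjusted p under 0.05, Ddrgk1, an adaptor of protein UFMylation, with a log2 difference of -0.55. Ufm1, the modifier itself, was at 0.25, and Atf6b, the paralog of Atf6, at -0.27. Ufm1 was at 0.07 and Atf6b at 0.00072 with the trends removed.

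In the ATF4 branch 5 of 7 tested genes had a negative difference, with a median of -0.12 that became 0.04 without WT replicate 1 and 0.02 with the trends removed. Atf4 was at 86.5, 64.7 and 81.8 FPKM in WT and 66.7, 73.25 and 72.5 FPKM in cKO. The cKO libraries sat inside the WT range, and the log2 difference was -0.12 (95% interval -0.45 to 0.20, limma adjusted p = 0.728), or 0.04 with the trends removed. Ddit3, which encodes the factor CHOP linked to cell death under ER stress, was at 10.02, 6.47 and 6.05 FPKM in WT and 7.39, 6.79 and 6.58 FPKM in cKO. WT replicate 1 was high and the cKO libraries lay inside the WT range. A second, short row under the same symbol was listed at 0 in every library, and Ddit3 shares exon bases with Mars on the opposite strand.

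Atf5, a relative of ATF4 with similar translational control, was at 19.9, 17.2 and 18.7 FPKM in WT and 17.0, 15.1 and 11.9 FPKM in cKO. Every cKO library was below every WT library by value, and the log2 difference of -0.33 (SE 0.15, limma adjusted p = 0.405) was -0.03 with the trends removed. At 62.8% G and C bases, Atf5 was the richest of the members, and it shares exon bases with Il4i1 and Nup62 on the opposite strand. Asns, asparagine synthetase, was at 29.1, 23.0 and 19.6 FPKM in WT and 26.0, 28.0 and 26.1 FPKM in cKO. The cKO libraries again lay inside the WT range (log2 difference 0.17), and without WT replicate 1 the difference was 0.32. The serine synthesis genes were Phgdh, with 56.9 to 87.9 FPKM in WT and 49.7 to 69.6 in cKO, and Psat1, with 12.4 to 13.1 and 12.8 to 13.9 FPKM. The highest library of Psat1 was 1.12 times its lowest, the smallest such ratio of the tested members. The log2 difference of Phgdh was -0.15, and it was 0.04 without WT replicate 1 and 0.00066 with the trends removed. Trib3, a pseudokinase induced late in the response, had a log2 difference of -0.16 (0.11 with the trends removed).

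Other genes of the eIF2 and ATF4 circuit did not pass either, with 0 calls by limma in 3 lists. Of 18 eIF2 circuit genes 13 had a positive difference (median 0.09), and 1 was higher at an unadjusted p under 0.05, Impact, an inhibitor of GCN2, with a log2 difference of 0.41. Eif2a stood at 0.24 and Eif2ak1, the haem-regulated kinase HRI, at 0.26. Eif2a was at 0.01 with the trends removed, and without WT replicate 1 Eif2ak1 was at 0.16. Of 22 other ATF4 targets 13 had a negative difference (median -0.05, 0.06 with the trends removed), with 0 higher and 4 lower at that limit. Ddit4, an inhibitor of mTORC1 signalling, was at 58.3, 53.4 and 70.4 FPKM in WT and 41.6, 39.3 and 36.1 FPKM in cKO, 64.2% of the WT mean, with no overlap. Its log2 difference was -0.62 (limma adjusted p = 0.360), or -0.38 with the trends removed. Jdp2, a bZIP factor, stood at -0.53 and Slc3a2, a subunit of amino acid transporters, at -0.34. Jdp2 was at -0.34 and Slc3a2 at -0.21 with the trends removed. The 12 aminoacyl-tRNA synthetase genes split evenly, 6 above and 6 below 0 with a median of 0.03, and 0 at an unadjusted p under 0.05; the lowest p values were those of Lars (0.17), Iars (0.23) and Yars (-0.13), given here as log2 differences. Lars was at 0.07 with the trends removed, and without WT replicate 1 Iars was at 0.07 and Yars at -0.06.

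Of the oxidative stress genes, Sqstm1, the autophagy receptor p62, was at 107, 92.6 and 105 FPKM in WT and 94.3, 89.2 and 86.6 FPKM in cKO. The groups overlapped at WT replicate 2 and cKO replicate 1 (log2 difference -0.17, limma adjusted p = 0.566). With the trends removed Sqstm1 was at -0.08, Hmox1 at -0.02 and the median of the 3 oxidative stress genes at -0.02, against -0.16 without that step. Hmox1, haem oxygenase, was at 40.4, 38.4 and 47.9 FPKM in WT and 39.6, 40.1 and 33.6 FPKM in cKO, and WT replicate 3 and cKO replicate 3 stood apart in opposite directions (log2 difference -0.16, limma adjusted p = 0.628). Nqo1, a quinone reductase, averaged 5.88 ± 1.72 FPKM over WT and 6.29 ± 1.21 FPKM over cKO libraries (SD, n = 3). Sqstm1 shares exon bases with Mrnip on the opposite strand. Of 24 other targets of NRF2, the factor behind these genes, 13 had a negative difference (median -0.03), 0 passed, and 1 was higher at an unadjusted p under 0.05, Gclc, of glutathione synthesis, with 8.89 ± 0.642 (WT) and 11.8 ± 1.97 FPKM (cKO; SD, n = 3). Tkt stood at a log2 difference of -0.21 and Gstm1 at -0.24, or -0.11 and -0.09 with the trends removed.

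Among cytosolic heat shock genes 4 of 6 had a positive difference, with a median of 0.07 (0.21 with the trends removed). Hspa8 was at 373, 346 and 299.7 FPKM in WT and 412, 407 and 394 FPKM in cKO. All cKO libraries lay above all WT libraries, the cKO mean was 119% of the WT mean, and the log2 difference was 0.26 (SE 0.15, 95% interval -0.08 to 0.59, limma adjusted p = 0.491). Hsp90aa1 was at 263, 208 and 167 FPKM in WT and 256, 312 and 243 FPKM in cKO, with WT replicate 1 inside the cKO range. Its log2 difference was 0.36 (SE 0.20, limma adjusted p = 0.474), 0.52 without WT replicate 1 and 0.20 without WT replicate 3. Both genes were higher at an unadjusted p under 0.05 on the TPM scale, with quantile normalization and without WT replicate 1, beside 6.32, 6.10 and 5.58% of all genes higher in those settings. Hspa8 shares annotated exon bases with the small nucleolar RNAs Snord14c, Snord14d and Snord14e on the same strand.

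Hspa1a and Hspa1b, the stress-inducible HSP70 genes, are neighbours on chromosome 17 whose coding sequences are the same at 1915 of 1926 aligned bases (99.4%) and whose promoter windows are the same at 296 of 300 bases. How the authors divided reads between them is not given, so each level is uncertain. Hspa1a was at 8.16, 8.67 and 9.63 FPKM in WT and 9.63, 9.37 and 8.12 FPKM in cKO, and Hspa1b at 19.0, 20.1 and 24.6 FPKM in WT and 22.7, 19.9 and 19.9 FPKM in cKO. Both pairs of groups overlapped fully, with log2 differences of 0.03 and -0.02 (limma adjusted p = 0.922 and 0.961); with the trends removed they were 0.26 and 0.20. Hsph1, an HSP110 partner of HSP70, ranged from 10.8 to 15.6 FPKM in WT and 13.2 to 17.3 in cKO. Dnajb1, the inducible J-domain cofactor, ranged from 26.9 to 30.7 and 25.7 to 27.3 FPKM.

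Of 38 other cytosolic chaperone genes 22 had a positive difference (median 0.03), 0 passed, and 1 was higher and 1 lower at an unadjusted p under 0.05. The lower was Stub1, the chaperone-linked ubiquitin ligase CHIP, at 29.7, 22.7 and 25.5 FPKM in WT and 19.6, 14.7 and 14.1 FPKM in cKO (log2 difference -0.66, limma adjusted p = 0.361, and -0.42 with the trends removed). The higher was Hsf2, a heat shock factor, at 0.34, which became 0.02 with the trends removed, and Hspa4, an HSP110 family gene, stood at 0.28, or 0.12 with the trends removed.

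**Figure D4:**
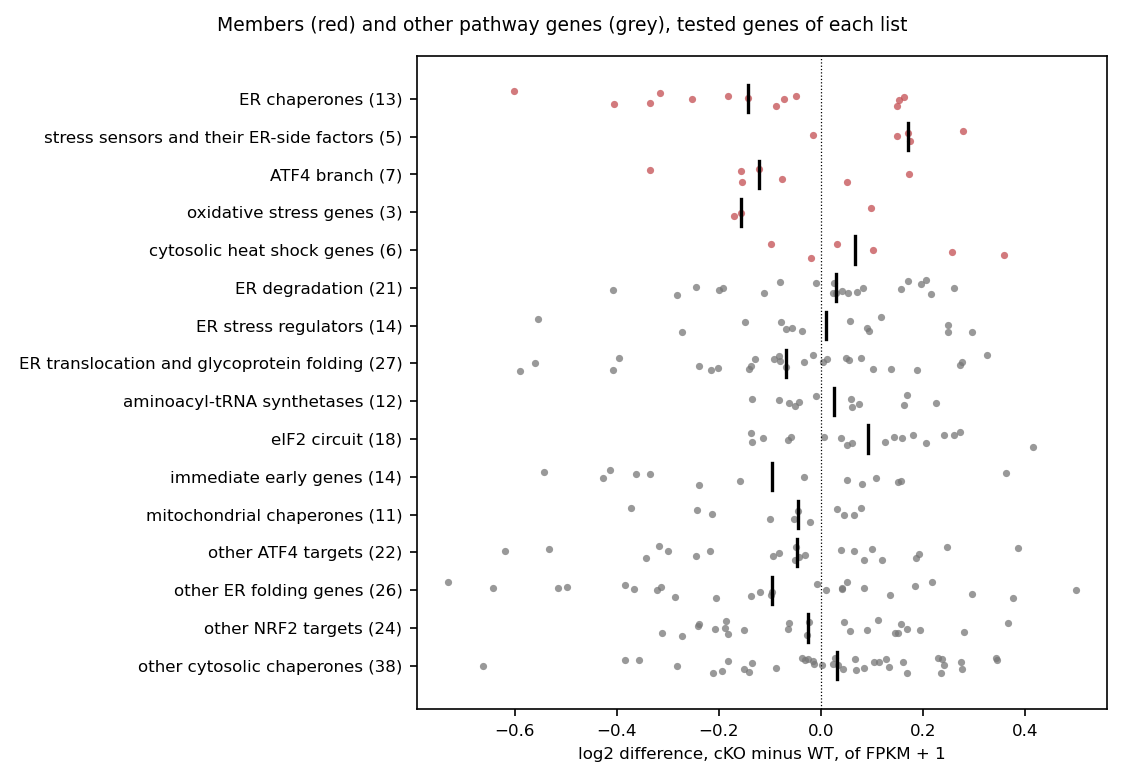
Log2 differences, cKO minus WT, of the tested members of each branch (red) and of the other pathway lists (grey), with the number of genes in parentheses and a black bar at each median. The medians lie between -0.16 for the oxidative stress genes and 0.17 for the sensor genes, which with the trends removed were -0.02 and 0.09.

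Library by library, WT replicate 1 was most often the highest. It was the highest of the 6 libraries for 14 of 34 members (41.2%, beside 26.9% of all tested genes) and the lowest for 6 (17.6%, beside 28.0%). The other libraries were highest for 2, 4, 6, 3 and 5 members, in the order WT replicates 2 and 3 and cKO replicates 1 to 3. In the ER chaperone branch WT replicate 1 was highest for 7 of 13 genes and in the ATF4 branch for 5 of 7, while it was lowest for 4 of the 5 sensor genes. Within its own group, replicate 1 of either genotype was the highest of 3 for 21 of 34 members and 10 of 13 ER chaperones, where over all tested genes this held for 40.9% (WT) and 35.6% (cKO).

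Branch scores, the mean over tested members of log2(FPKM + 1) minus each gene's mean over the 6 libraries, differed between the branches in which library stood out. For ER chaperones they were 0.24, 0.03 and -0.04 in WT and 0.06, -0.17 and -0.12 in cKO, and for sensors -0.27, 0.04 and 0.003 in WT and 0.05, 0.02 and 0.16 in cKO. For the ATF4 branch they were 0.24, -0.09 and -0.02 in WT and 0.01, 0.002 and -0.15 in cKO. The group ranges overlapped in all 5 branches. WT replicate 1 did not stand out in the remaining branches. The oxidative stress genes scored -0.0081, -0.13 and 0.25 in WT and 0.01, -0.10 and -0.03 in cKO, with WT replicate 3 the farthest from 0. The heat shock genes scored 0.04, -0.06 and -0.14 in WT and 0.13, 0.06 and -0.03 in cKO, again with WT replicate 3 the farthest.

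Deviations also followed transcript length. Over 13945 tested genes, Pearson's r between a gene's deviation in WT replicate 1 and its length (log2) was -0.32, against -0.12 to 0.23 in the other 5 libraries. Over the 34 members it was -0.60 in WT replicate 1, 0.55 in cKO replicate 3, 0.36 in cKO replicate 2 and -0.17 to 0.21 in the remaining libraries. The median length in the table was 7457 bases for the sensor genes, 3524 for ER chaperones and 2358 for the ATF4 branch. Without WT replicate 1 the median log2 difference was 0.01 for ER chaperones and 0.06 for sensors, 19 of 34 members were positive, and the members at an unadjusted p under 0.05 were Hspa8, Hsp90aa1 and Asns (higher) and Sdf2l1 (lower), 3 and 1 of 34 beside 5.58 and 7.56% of all genes. Counts of lower members at that limit were 4 (beside 9.42% of all genes) without cKO replicate 1, 0 (beside 3.72%) when cKO replicate 2 was left out and 1 (beside 3.37%) when cKO replicate 3 was. The part of transcript length or RNA quality in these values was not tested.

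**Figure D5:**
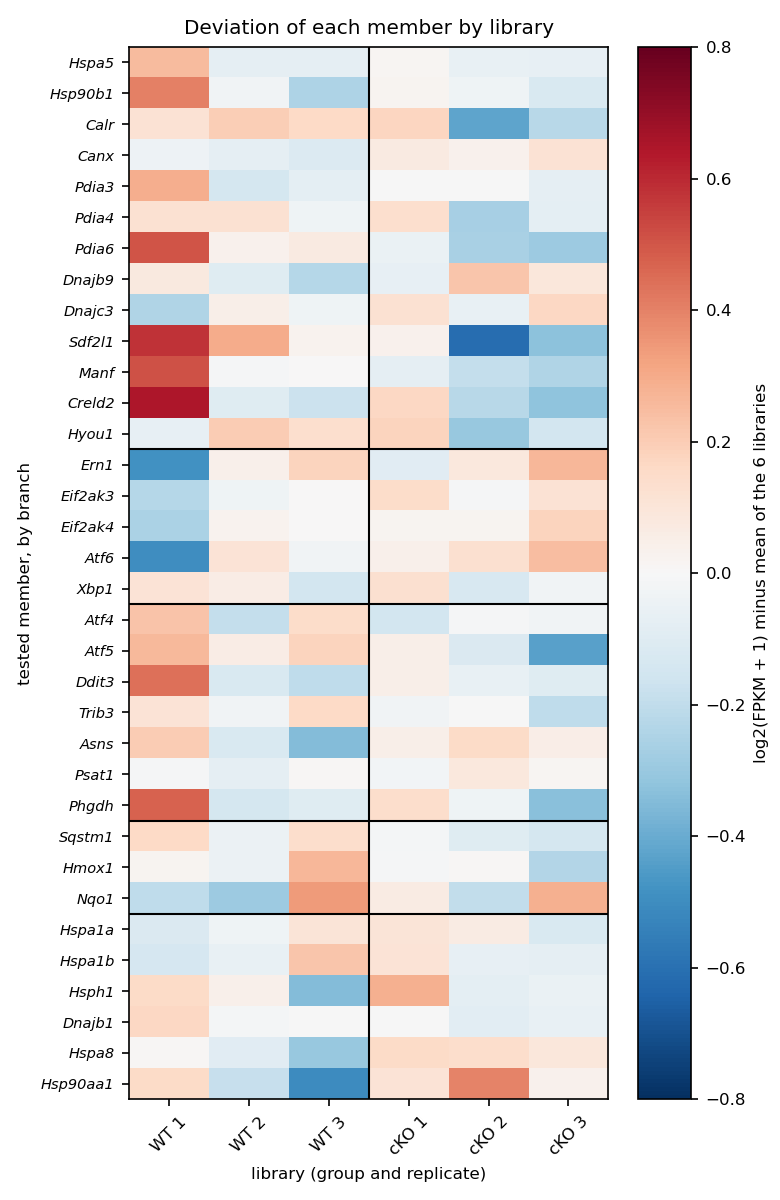
Each row is a tested member, each column a library, and the colour is log2(FPKM + 1) minus the member's mean over the 6 libraries, red for higher and blue for lower; black lines part the branches and the groups. The WT 1 column is red through most ER chaperone and ATF4 branch rows and blue in 4 of 5 sensor rows.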

How the data were processed

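FPKM values of the 6 testis libraries, as deposited by the authors, came in 1 table beside gene lengths in bases. Per the labels' protocols RNA was isolated with Trizol and made into libraries with a SMARTER mRNA-Seq kit, and per the submitters' processing notes the builds were GRCm38 and mm10. The sources used here name no aligner, counter, annotation or strand setting. Positions in the table were not those of GRCm38 and were not used.

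Members and lists were chosen with earlier results of these data known. Values were tested with limma 3.58.1 (R 4.3.3, mean-variance trend) on log2(FPKM + 1), cKO minus WT, over the 14238 genes averaging 1 FPKM or more, with Benjamini-Hochberg adjustment over all of them and a threshold of 0.05. On that scale changes of weakly expressed genes come out too small. Every member past the threshold or at an unadjusted p under 0.05, the 2 lowest p values of each branch, Ern1, Eif2ak3, Atf6, Xbp1, Atf4, Ddit3, Hspa5, Hspa1a and Hspa1b are given by library, and up to 3 genes of each pathway list by lowest p; Calr, Canx, Manf and Eif2ak4 were added after their values were seen. Reads were recovered as whole multiples of 1 step per library (100% of values within 0.01). Overlaps come from GENCODE M21 on GRCm38, where 12 of the 35 members share exon bases with another gene; base composition was known for 97.9% of tested genes. The other settings changed pseudocount, filter, scaling, variance model, replicate block, voom, length and base composition trends (natural splines, 5 degrees of freedom) or left out a library. The procedure was tested on simulated data without length or base composition trends, with planted changes larger than the members' differences. That run does not show how the procedure handles smaller changes or such trends. Summaries used Python 3.11.15 (pandas 2.3.3) and plots matplotlib 3.10.9. No protein sequences were used.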

Additional observations from a re-analysis of the deposited data

How the results depend on the processing

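No member passed the adjusted threshold in any of the 19 other settings, 6 of which leave out a library, and 17 of 34 tested members kept their sign in each setting in which they were tested. Over all genes, 1 was higher and 1 lower. The higher count was 0 on the TPM scale, at a mean FPKM of at least 5, with median-of-ratios scaling, with no filter, with a pseudocount of 0.1 or 0.5 and with the replicate block, and 2 with length and base composition trends removed. The lower count was 0 with limma voom on recovered reads, with no filter and with the block. Leaving out a library gave 0 to 0 in both directions. The labels do not say that replicate numbers pair the samples. The r of same-numbered deviations from the group means was 0.095, -0.331 and 0.393. With 3 libraries in each group these values cannot decide whether the samples were paired. With the replicate block 0 members passed, and 3 of 34 were lower at an unadjusted p under 0.05, beside 7.19% of all genes.

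Members higher at an unadjusted p under 0.05 numbered 0, against 2 on the TPM scale, 1 with the trends removed, 2 with quantile normalization and 0 to 3 without 1 library. The share of all genes moved too, from 4.65% to 6.32, 3.22 and 6.10% in those 3 settings. It was 1.66 to 7.42% without 1 library. Members lower at that limit numbered 0 to 4 without 1 library, beside 3.37 to 10.3% of all genes. Without 1 library the ER chaperone median ran from -0.24 to 0.0087 and that of the ATF4 branch from -0.21 to 0.044. With the trends removed the ER chaperone median was -0.14, that of the ATF4 branch 0.023 and that of the heat shock genes 0.21. The cause was not tested.

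Some signs turned, among them those of Atf6b, Creld2 and Clpp, which stood at -0.27, -0.25 and -0.21. With quantile normalization Hspa5 was at 0.025, Hsp90b1 0.021, Pdia3 0.082, Xbp1 0.062 and Hspa1b 0.033. On the TPM scale, which moved the median of all genes to 0.07, Pdia3 was at 0.012, Xbp1 0.045 and Hspa1b 0.041, and with voom Xbp1 was at 0.0055 and Hspa1b at 0.0018. With the trends removed Canx was at -0.030, Dnajc3 -0.026, Xbp1 0.013, Atf4 0.044, Ddit3 0.023, Trib3 0.11, Psat1 -0.038, Phgdh 0.00066, Hspa1b 0.20, Hsph1 -0.019, Atf6b 0.00072 and Clpp 0.055. Without 1 library the ranges were -0.13 to 0.034 for Hspa5, -0.23 to 0.093 for Hsp90b1, -0.13 to 0.085 for Pdia3, -0.40 to 0.0087 for Creld2, -0.023 to 0.31 for Ern1 and -0.092 to 0.043 for Xbp1. They were -0.20 to 0.12 for Ddit3, -0.27 to 0.044 for Phgdh, -0.021 to 0.30 for Nqo1, -0.018 to 0.099 for Hspa1a, -0.091 to 0.087 for Hspa1b and -0.044 to 0.20 for Hsph1. Read depth limited Chac1 and Trib3 most.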

Other observations

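Genes outside the stress branches that carry an ERSE in their RefSeq window numbered 30, of which 15 were tested. Their log2 differences were positive for 8 and negative for 7, with a median of 0.03. Among them were the ER genes Syvn1, Derl3 and Ero1b, at -0.28, -0.24 and 0.14. The 9 tested genes with an ERSE-II match, among them Herpud1 and Dnajb11, had a median of 0.03. Herpud1, an ER membrane protein of the degradation pathway, stood at 0.03 and Dnajb11, a J-domain cofactor of BiP, at -0.21. The 240 other tested genes with the amino acid response element had a median of 0.01, and the 50 with a heat shock element -0.02.

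Mitochondrial chaperones and proteases, the counterpart of the ER set in another organelle, had a median log2 difference of -0.05 over 11 genes, 4 above and 7 below 0. Htra2, a protease of the intermembrane space, stood at -0.37 with no overlap between groups (limma adjusted p = 0.378), Clpp at -0.21 and Grpel1 at -0.24. With length and base composition trends removed Htra2 was at -0.19 and Clpp at 0.05, and without WT replicate 1 Grpel1 was at -0.05. Of 14 tested immediate early genes, which respond within minutes to tissue handling and stimulation, 8 had a negative difference (median -0.10), 1 was higher and 2 were lower at an unadjusted p under 0.05, and 0 passed. Klf2, an endothelial and immune factor, averaged 19.9 ± 1.44 (WT) and 14.7 ± 1.14 FPKM (cKO; SD, n = 3), Ier5 stood at a log2 difference of -0.54, and Btg2 at 0.36. The log2 difference of Klf2 was -0.41, or -0.11 with the trends removed, and without WT replicate 1 Btg2 was at 0.24.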
